A study of Mus musculus with 20 samples.

Results

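Of 10 genes for epidermal growth factor (EGF) receptor ligands, ERBB receptors, HGF and MET, 9 could be tested in the mouse diaphragm. Epiregulin, encoded by Ereg, was the only 1 called higher in mice given long fibers than in vehicle-treated mice. Of all tested probes, 3.94% were called in either direction with long asbestos fibers and 6.81% with long carbon nanotubes. The 10 genes were chosen by name, as Egfr, Erbb2, Erbb3, Areg, Ereg, Hbegf, Btc, Tgfa, Met and Hgf, out of 34797 gene names on the array. They were measured by 12 probes, 3 of them for Egfr and 1 for each other gene. The mice were female C57Bl/6, injected into the pleural cavity at 8 weeks of age, and the diaphragm was taken 12 weeks later. The control group received 100 μL of 0.5% bovine serum albumin in saline, the vehicle that all groups shared. SFA (short fibers) and LFA (enriched for long fibers) are amosite asbestos from a single batch, given at 25 μg per mouse. NTS and NTL are short and long carbon nanotubes, given at 5 μg per mouse, so that asbestos and nanotubes differed in dose as well as in material. Each of the 5 groups had 4 mice, each with an array of its own.

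EGF family ligands are made as membrane-anchored precursors that proteases release from the cell surface, and they bind EGFR (ERBB1) or, for the neuregulins and a few others, ERBB3 and ERBB4. ERBB2 binds no ligand itself and acts as a partner of the other receptors, and the active pairs switch on the RAS-ERK and PI3K pathways. HGF, a ligand mainly of mesenchymal cells, is cleaved outside the cell and then activates MET, a receptor found on epithelial and mesothelial cells, and both receptor systems are studied as growth signals in mesothelioma.

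The first 30 of the 60 bases of a probe show which transcript was measured, here for the genes that the results turn on and for the Egfr probes, which differed among themselves. Positions are those of the array files (NCBI37), and no base is in capitals because no part of a probe is singled out.
Ereg (chr5:91522553-91522612, plus strand): gatagtcatgtaccttgacatagtgaagga
Hgf (chr5:16124829-16124888, plus strand): agtgtgtttgaagcatccatggatacatga
Erbb3 (chr10:128006424-128006483, minus strand): gacaaccccgattactggcatagcaggctt
Egfr A_52_P106259 (chr11:16813815-16813874, plus strand): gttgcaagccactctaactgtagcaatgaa
Egfr A_55_P1956862 (chr11:16787172-16787231, plus strand): gaagtgtggccatctgggtacgttcaatgg
Egfr A_55_P1956863 (chr11:16783556-16783615, plus strand): tctggaagtatgcagatgccaataatgtct
The files tie the first Egfr probe to the transcript NM_207655 and the rest to NM_007912. Ereg, Areg and Btc lie side by side on chromosome 5. There are 47.5 kb between the Ereg and Areg probes and 216.8 kb between the Areg and Btc probes.

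Levels are given as the log2 signal of a probe minus the 75th percentile of its array, so that 0 marks a probe as bright as that percentile, and levels of different probes are not compared. The 75th percentile itself ran from 294 to 648 in control, from 339 to 589 in SFA, from 548 to 964 in LFA, from 380 to 487 in NTS and from 530 to 996 in NTL. The test took in a probe if no fewer than 4 of the 20 arrays carried the scanner software's mark for a signal well above background. That left 11 of the 12 probes and 9 of the 10 genes, and Areg was not tested. A gene was called when it differed at least 2-fold at an adjusted p under 0.05 in limma. The labels give the tissue as diaphragm, and all 9 skeletal muscle markers were above background on all arrays. Of these markers 2 fell in LFA and 3 in NTL against control, and their summed level (1 unit is the 75th percentile) was 4053 to 6338 in control, 3530 to 4107 in SFA, 2172 to 2942 in LFA, 2925 to 5707 in NTS and 2061 to 2531 in NTL. In RNA from a whole tissue, fewer cells of a type cannot be told apart from less RNA per cell.

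The arrays also differed in transcripts of the liver, the organ on the other side of the diaphragm. The summed level of 8 liver markers, in the same unit, exceeded 1000 on 5 arrays, with 1807 on SFA 2, 1645 on LFA 1, 2540 on LFA 3, 4226 on NTS 3 and 3743 on NTS 4. On the other arrays it lay between 8.67 (NTS 2) and 449 (SFA 3). The 8 liver markers did not pass the test in any comparison. Markers of macrophages rose with the long fibers, 5 of 8 in LFA and 5 of 8 in NTL against control. Their summed level was 69.2 to 110 in control, 71.6 to 134 in SFA, 62.7 to 128 in NTS, 122 to 206 in LFA and 173 to 226 in NTL, and their part in the results below was not tested.

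Counted over the tested members, calls were few. Against control 1 of 9 genes was called in LFA and 1 of 9 in NTL, Ereg in both, where 3.94% and 6.81% of all 36930 tested probes were called. No gene was called in SFA or NTS against control, with 0 of 9 at an unadjusted p under 0.05 in limma, and the share of all probes called was 0% in both. NTL against NTS gave 2 of 9, Ereg up and Erbb3 down, beside 7.6% of all probes, of which Erbb3 passed the filter only through its NTS arrays. LFA against SFA gave 0 of 9 beside 1.16% called, and 2 of 9 at an unadjusted p under 0.05 beside 12.5% of all probes. LFA against NTL and the difference of the length effects gave 0 of 9, with 0 at an unadjusted p under 0.05, beside 0% of all probes each. Over the 5 groups, the F test in limma with at least a 2-fold change called 1 of 9, Ereg (adjusted p = 0.0063), beside 5.89% of all probes.

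An analysis of variance over the 5 groups that allows unequal variances, adjusted over all tested probes, gave Ereg an adjusted p of 0.0514 and Hgf 0.0772, and called 0 of 9. The methods adjust this test only over probes already changed at least 2-fold from control, here 10942, and in that order it called 2 of 9, Ereg (adjusted p = 0.0193) and Hgf (adjusted p = 0.0308). Choosing probes by fold before the adjustment makes the adjusted p-values smaller. The median change of the 9 genes was −0.15 in LFA, −0.14 in NTL, −0.03 in SFA and 0.31 in NTS, against −0.28, −0.25, −0.10 and −0.06 for all tested probes.

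**Figure D1:**
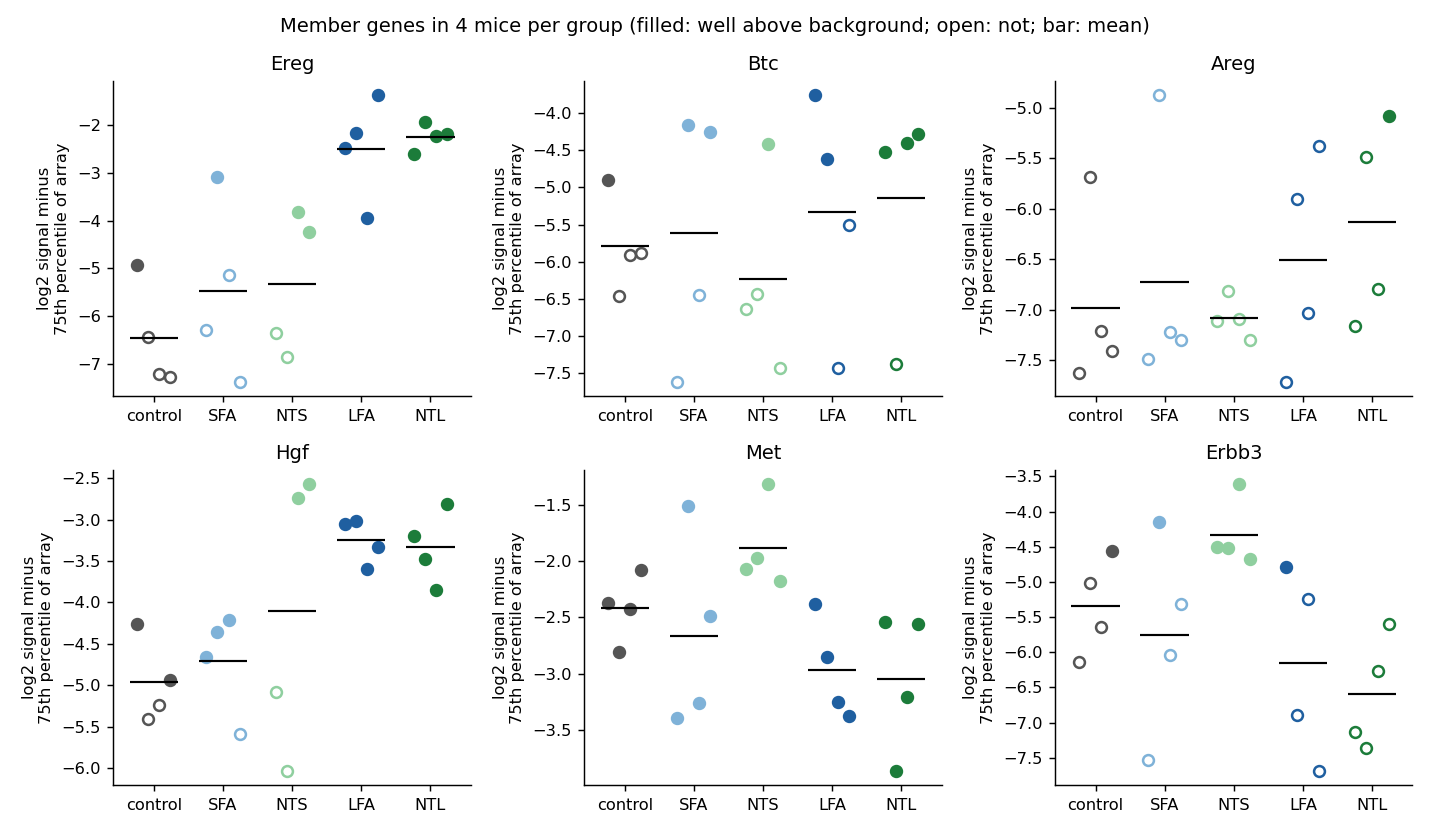
Log2 signal minus the 75th percentile of the array (vertical axis) for Ereg, Btc, Areg, Hgf, Met and Erbb3 in each of 4 mice per group, with filled points well above background, open points not, and a bar at the group mean. All 8 long-fiber points of Ereg and of Hgf lie above all control points, while the groups of Btc and Areg overlap.

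Among the ligands of EGFR, Ereg changed with long fibers of both materials. In control its level was −4.94, −6.44, −7.22 and −7.28, and only the first of these arrays was well above background. In LFA it was −2.48, −2.16, −3.95 and −1.37, and in NTL −2.61, −1.93, −2.22 and −2.18, all well above background. All 8 long-fiber arrays were therefore above all 4 control arrays. The difference from control was 3.98 ± 0.83 (log2 ± SE, 4 mice per group, a fold of 15.8, adjusted p = 0.0137 in limma) in LFA and 4.23 ± 0.83 (a fold of 18.8, adjusted p = 0.00482) in NTL. Both folds rest on a control mean that is largely background, with 1 of 4 arrays above it, so their size is less certain than their direction. With a background correction that adds an offset (normexp), the differences were 1.09 and 1.199 and both were still called. Without LFA 4, the array with the highest value, LFA against control fell just short of the threshold, with a difference of 3.61 at an adjusted p of 0.0501.

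The short fibers gave mixed values for Ereg. SFA arrays were at −6.30, −3.09, −5.13 and −7.38 and NTS arrays at −6.35, −6.86, −3.83 and −4.23, with 1 and 2 arrays above background. SFA 2 and NTS 3 lay above LFA 3, so LFA overlapped both short-fiber groups, while all 4 NTL arrays lay above all 12 arrays of control, SFA and NTS. The differences from control were 0.99 ± 0.83 (adjusted p = 0.999 in limma, 95% interval −0.76 to 2.75) in SFA and 1.15 ± 0.83 (adjusted p = 0.9999, interval −0.60 to 2.90) in NTS, and neither was called. Long against short, Ereg rose by 3.08 ± 0.83 in NTL over NTS (adjusted p = 0.0282), and LFA against SFA gave 2.98 ± 0.83, which did not pass (adjusted p = 0.111). Without SFA 2 the asbestos difference was 3.78 and passed (adjusted p = 0.0363).

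The nanotube length call for Ereg did not hold in every fit. It was lost without NTS 1, without NTS 2 and without any single NTL array, at adjusted p-values of up to 0.0977. With the slide as a block it was 3.59 at an adjusted p of 0.0893, and within the only slide that held both groups, 1 NTL array lay 3.99 above the mean of 2 NTS arrays. Against control, Ereg differed in the same direction on every slide, by 4.62, 3.21 and 5.06 in LFA on slides 1, 2 and 3 and by 3.08 and 5.11 in NTL on slides 2 and 3. LFA against NTL was not called, with a difference of −0.25 ± 0.83 (adjusted p = 0.9999, interval −2.01 to 1.498), and the 2 length effects differed by 0.10 (interval −2.38 to 2.58). These intervals still allow differences of several fold. By group mean the order was NTL (−2.24 ± 0.28 SD), LFA (−2.49 ± 1.08), NTS (−5.32 ± 1.51), SFA (−5.47 ± 1.84) and control (−6.47 ± 1.09), in which LFA and NTS are the only neighbors whose means lie further apart than their SDs.

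On arrays without long fibers, Ereg was high where liver transcripts were high. Of the 12 control, SFA and NTS arrays, the 5 with the highest summed liver level were also the 5 with the highest Ereg, from −5.13 upward, and the other 7 were at −6.30 or lower. These 5 include control 1 and SFA 3, whose summed liver levels (334 and 449) were under 1000. All members were ranked in this way, and only Ereg and Hgf shared all 5. The others shared between 0 (Hbegf) and 3 (Btc, Egfr and Tgfa) of the 5. Among the long-fiber arrays this did not hold. LFA 2 and LFA 4 had summed liver levels of 12.7 and 31.0, below and just above the 22.5 to 26.7 of control arrays 2, 3 and 4 and far below the 334 of control 1, and Ereg levels of −2.16 and −1.37. A further fit left out the 5 arrays with a summed liver level above 1000, which were SFA 2, LFA 1, LFA 3, NTS 3 and NTS 4. Control 1 and SFA 3 stayed in. The difference from control was then 4.70 in LFA, which rested on LFA 2 and LFA 4 alone (adjusted p = 0.00202). None of the arrays left out was a control or NTL array. The NTL difference of 4.23 therefore could not change, only the spread that all groups share (adjusted p = 4.7e-04).

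The other tested EGFR ligand genes, Btc, Tgfa and Hbegf, did not pass in any comparison, and Areg was not tested. Areg (amphiregulin), the neighbor of Ereg on chromosome 5, was well above background on 1 array of 20, NTL 4, at −5.08, and the others ran from −7.72 to −4.88. Btc (betacellulin), the next gene, was above background on 9 arrays, 1 in control, 2 in SFA, 2 in LFA, 1 in NTS and 3 in NTL. Its NTL levels were −4.52, −7.38, −4.41 and −4.28 against −4.90, −6.46, −5.91 and −5.88 in control, a difference of 0.64 ± 0.91 (adjusted p = 0.726), and the groups overlapped. Of these adjacent genes Ereg was called and Btc was not, while Areg could not be called because the filter left it out. Whether the 3 differ from one another in their change was not tested.

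Tgfa (transforming growth factor alpha) was above background on 8 arrays and lay between −6.60 and −3.72 over all 20, with all groups overlapping and differences from control between −0.25 (NTL) and 0.31 (NTS). Hbegf (heparin-binding EGF-like growth factor), which also serves as the receptor of diphtheria toxin in people, was above background on all 20 arrays. Its levels were 0.14, 0.35, 0.24 and 0.01 in control and −0.46, −0.03, −0.75 and 0.08 in LFA, a difference of −0.47 ± 0.25 (adjusted p = 0.255, interval −1.0003 to 0.05). In NTL the difference was −0.25 ± 0.25 (adjusted p = 0.594). For Hbegf the intervals exclude a 2-fold rise in either long-fiber group, whereas those of Btc do not.

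**Figure D2:**
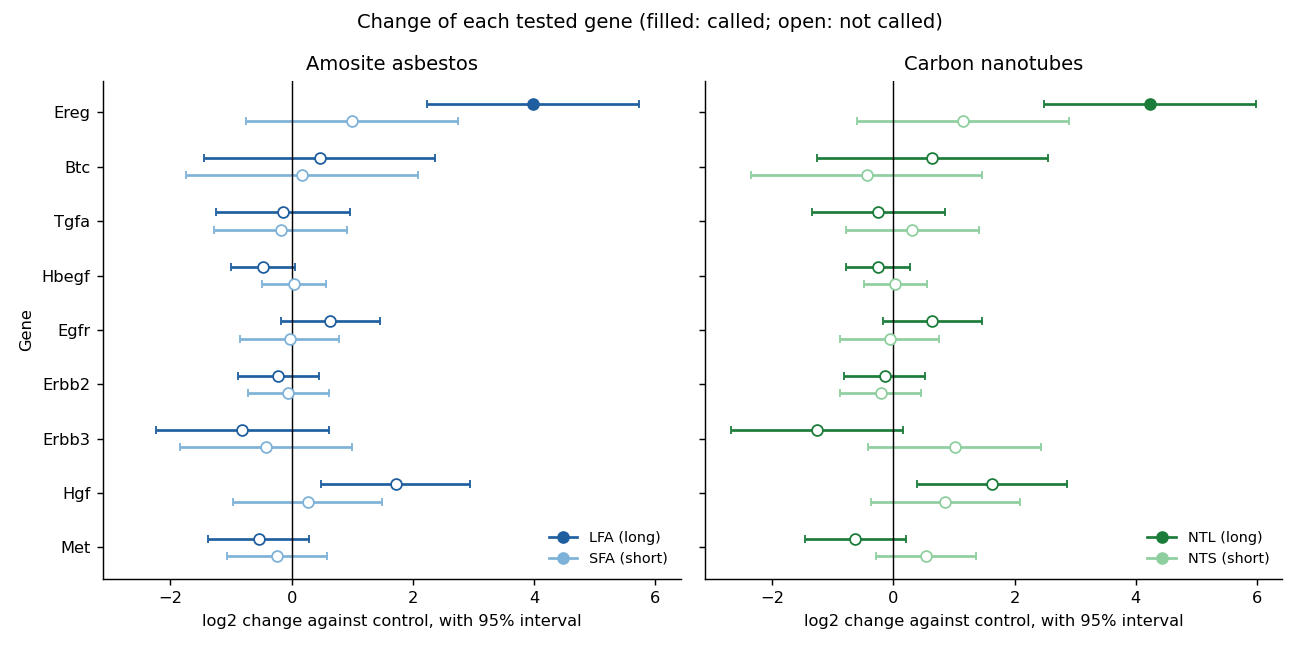
Log2 change against control (horizontal axis) with the 95% interval of the fit for the 9 tested genes, on the left in LFA and SFA and on the right in NTL and NTS, with filled points for called changes. Ereg in LFA (3.98) and NTL (4.23) are the filled points, and the Hgf intervals in LFA and NTL leave out 0 without an adjusted call.

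None of the receptors Egfr, Erbb2, Erbb3 and Met was called against control. Egfr, the receptor for all of these ligands, had its brightest probe (A_52_P106259) at 1.68, 2.21, 1.004 and 0.74 in control, 1.81, 1.94, 2.23 and 2.19 in LFA and 2.05, 2.57, 1.59 and 1.99 in NTL. The groups overlapped, although LFA 3 and NTL 2 were above the highest control array, and the differences were 0.63 ± 0.39 in LFA (adjusted p = 0.327) and 0.64 ± 0.39 in NTL (adjusted p = 0.342). SFA and NTS differed from control by −0.03 and −0.06.

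The 3 Egfr probes did not give the same picture. In LFA, A_55_P1956862 and A_55_P1956863 differed from control by 0.50 ± 0.29 and 0.09 ± 0.28, and in NTL by 0.20 ± 0.29 and −0.08 ± 0.28. Between NTL and NTS, A_52_P106259 gave 0.70 ± 0.39 (adjusted p = 0.276) and A_55_P1956863 −0.64 ± 0.28 (adjusted p = 0.166), so the sign depended on the probe. On A_55_P1956863 the NTS arrays, at −0.81, −0.77, −0.50 and −0.41, were all above the NTL arrays, at −0.84, −1.62, −1.48 and −1.10. NTS 4, an array rich in liver transcripts, had the highest value of all 20 on each of the 3 probes, at 2.62, 0.10 and −0.41. NTS 3, with a higher summed liver level, was at 1.06, −0.63 and −0.50, and the part of liver transcripts was not tested. Leaving NTS 4 out, A_52_P106259 was called higher in NTL than in NTS, by 1.12 (adjusted p = 0.0307). Because NTS 4 was the highest array on this probe, leaving it out favored that call.

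**Figure D3:**
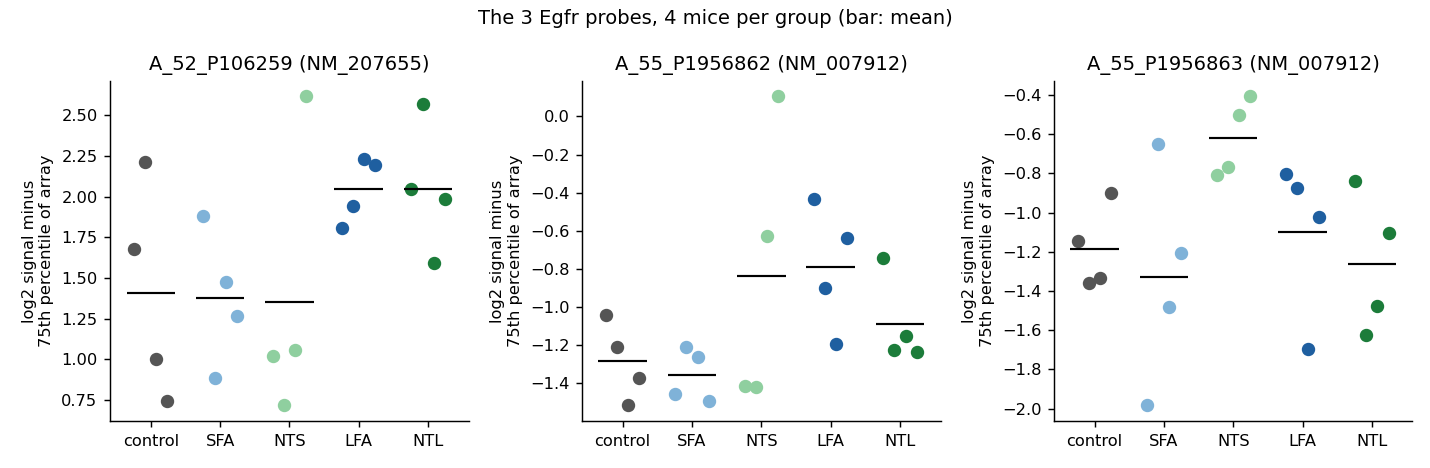
Log2 signal minus the 75th percentile of the array (vertical axis) for the 3 Egfr probes in 4 mice per group, with the bar at the mean. NTS is the lowest group on A_52_P106259 (mean 1.35) and the highest on A_55_P1956863 (−0.62).

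Erbb2, the receptor with no ligand of its own, was above background on all 20 arrays, at −1.02, −2.22, −1.57 and −1.42 in control. The 5 group means lay between −1.78 (LFA) and −1.56 (control), and the largest difference from control was −0.22 ± 0.32 (adjusted p = 0.689). The interval in NTL, from −0.81 to 0.52, excludes a 2-fold change in either direction.

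Erbb3, a receptor for neuregulins with little kinase activity of its own, differed between the nanotubes. NTS arrays were at −4.50, −4.52, −3.61 and −4.67, all above background, and NTL arrays at −7.13, −7.36, −6.27 and −5.60, none of them above background. NTS and NTL did not overlap, and the measured difference of NTL from NTS was −2.27 ± 0.68 (adjusted p = 0.0443). Because Erbb3 was not well above background on any NTL array, the measured means of −4.33 and −6.59 give only an approximate bound on the fold. With each NTL array raised to its lowest signal well above background, the NTS mean was 2.06-fold higher. That signal is the lowest of any probe and no strict limit for Erbb3. On NTL 4 it was −5.27, and Tgfa there, at −5.26, was not well above background. This figure leaves out the spread between mice, and the 95% interval of the measured difference was −3.69 to −0.84. Erbb3 entered the test only through NTS, since the other groups held 3 arrays above background in all, under the minimum of 4. The filter thus favored a higher level in NTS, and the call is no independent support for that direction. Control arrays, at −6.13, −5.01, −5.64 and −4.56 with 1 above background, overlapped both nanotube groups, and neither nanotube group was called against it, at 1.01 ± 0.68 in NTS (adjusted p = 0.9999) and −1.26 ± 0.68 in NTL (adjusted p = 0.275). The Erbb3 call was lost in 16 of 31 alternatives. It was lost without control 3, SFA 3, SFA 4, any of NTS 1 to 3 or any of NTL 1 to 3, at adjusted p-values of up to 0.127, and with the slide as a block (−2.13, adjusted p = 0.214), and NTL and NTS share only 1 slide, on which the difference was −2.62 for 1 NTL array against 2 NTS arrays.

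Erbb3 was compared with marker lists of other cells. Schwann cells express Erbb3, and the summed level of 5 Schwann cell markers was 2.06 to 3.16 in NTL against 3.91 to 5.26 in control and 3.02 to 5.79 in NTS, with 0 of the 5 called in NTL against control or NTS. At an unadjusted p under 0.05 in limma there were 3 of 5 in NTL against control and 2 of 5 against NTS. The shares of all probes were 23.5% and 25.1%. The median changes of the 5 markers were −0.80 and −0.74. Without NTS 3 and NTS 4, the arrays with the most liver transcripts, the Erbb3 difference was −2.08 (adjusted p = 0.110), and without all 5 arrays rich in liver transcripts it was −2.08 and called (adjusted p = 0.0393). NTS 1 and NTS 2, with summed liver levels of 32.6 and 8.67, were at −4.50 and −4.52. By group, the Schwann cell sum (median 2.55) and Erbb3 (mean −6.59) were both lowest in NTL. Array by array they were not compared in a test, and the arrays named next are examples. NTS 3 and NTS 4 had Schwann cell sums of 3.32 and 3.02, near the highest NTL sum of 3.16. Their Erbb3 levels were −3.61 and −4.67. SFA 1 had a Schwann cell sum of 6.08 and an Erbb3 level of −7.54, which was not well above background. The part of the Schwann cell markers in the result was not tested.

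**Figure D4:**
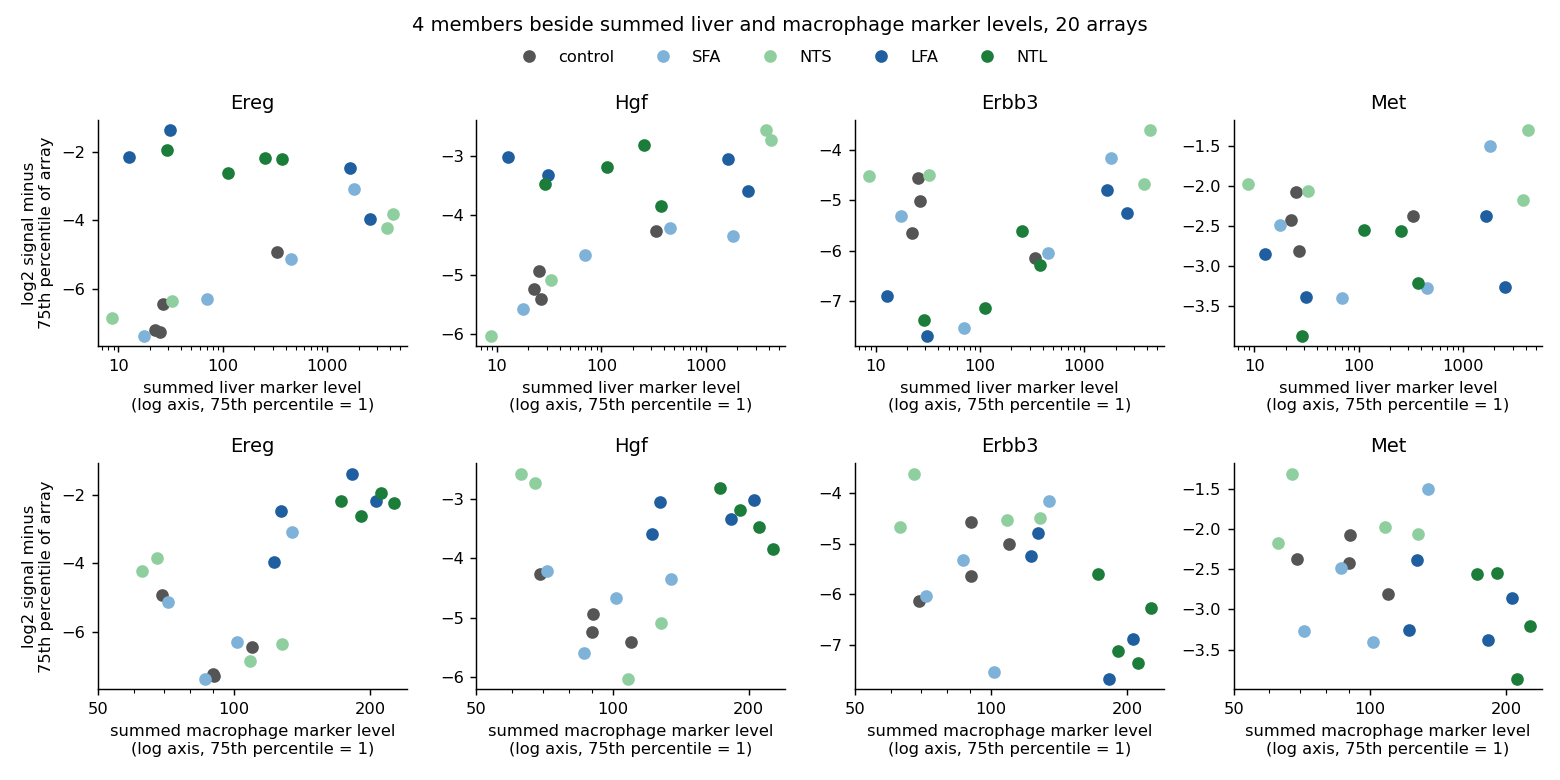
Log2 signal minus the 75th percentile (vertical axis) of Ereg, Hgf, Erbb3 and Met on the 20 arrays against the summed level of 8 liver markers (top, log axis) and 8 macrophage markers (bottom, log axis), colored by group. Of the 12 control, SFA and NTS arrays, the 5 with the most liver transcripts have the 5 highest levels of Ereg and of Hgf. They hold only 2 of the 5 highest levels of Erbb3 and 2 of those of Met. LFA 2 and LFA 4 have high Ereg (−2.16 and −1.37) with little liver signal.

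Hgf, which acts on epithelial cells from the surrounding stroma, had higher values on all long-fiber arrays but was not called. Control was at −4.27, −5.41, −5.24 and −4.94, with 2 arrays above background, LFA at −3.05, −3.01, −3.60 and −3.33, and NTL at −3.19, −3.48, −3.85 and −2.81. SFA was at −4.66, −4.35, −4.21 and −5.58. All 8 long-fiber arrays lay above all 8 control and SFA arrays. The differences from control were 1.72 ± 0.59 in LFA (a fold of 3.29, unadjusted p = 0.00901, adjusted p = 0.0939 in limma) and 1.63 ± 0.59 in NTL (a fold of 3.10, unadjusted p = 0.0124, adjusted p = 0.0960).

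Hgf varied most in NTS, where the arrays were at −5.08, −6.03, −2.74 and −2.57 (an SD of 1.72, against 0.27 to 0.62 in the other groups). The high values are those of NTS 3 and NTS 4, the arrays with the most liver transcripts, and they held the 2 highest Hgf values of the series. Neither array enters LFA or NTL against control, so leaving both out could not change those differences, only the spread that all groups share. Both then passed, at adjusted p = 0.00813 in LFA and 0.00774 in NTL in limma. NTL exceeded the remaining NTS 1 and NTS 2 by 2.22 (adjusted p = 0.00487), against 0.77 ± 0.59 with all arrays (adjusted p = 0.433). NTS 3 and NTS 4 held the highest Hgf values, so leaving them out itself raised this difference. Without all 5 arrays rich in liver transcripts the difference from control was 1.79 in LFA, then LFA 2 and LFA 4 alone (adjusted p = 0.0384). In NTL it stayed at 1.63 (adjusted p = 0.0129). Without NTS 2 alone, an array low in liver transcripts, both differences also passed (adjusted p = 0.0441 and 0.0416). Without NTS 4 alone LFA passed (adjusted p = 0.0485). In a fit of only the groups compared, both also passed (adjusted p = 0.0414 and 0.0268). As for Ereg, the 5 control, SFA and NTS arrays with the most liver transcripts held the 5 highest Hgf values among the 12, from −4.35 upward, and the others were at −4.66 or lower. With normexp the differences were 0.37 and 0.28 and were not called. Of 6 markers of fibroblasts, cells that make HGF, 1 was called higher in LFA and 4 in NTL against control. In control the summed level of these markers was 561 to 886, in SFA 610 to 830 and in NTS 503 to 702. In LFA it was 585 to 1167 and in NTL 746 to 1327. It was lowest, at 503 and 505, on NTS 3 and NTS 4, the arrays with the highest Hgf values. The part of the fibroblast markers in the Hgf values was not tested.

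Met, the receptor of HGF, was above background on all 20 arrays and was not called in any comparison. Its levels were −2.37, −2.81, −2.42 and −2.08 in control, −2.38, −2.85, −3.25 and −3.38 in LFA, and −2.55, −3.87, −3.21 and −2.56 in NTL, differences of −0.55 ± 0.39 (adjusted p = 0.408) and −0.63 ± 0.39 (adjusted p = 0.360). In NTS it was at −2.06, −1.97, −1.31 and −2.18, above all 8 long-fiber arrays. NTL against NTS gave −1.16 ± 0.39, a fold of 2.24 lower, which missed the threshold (adjusted p = 0.0729) and passed with quantile normalization (−1.05, adjusted p = 0.0418) and without SFA 2 (adjusted p = 0.0357).

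The genes most like Ereg had the smallest root mean square difference from it over the 20 arrays, in levels relative to control. They were Gm14461 (0.93), Saa1 (1.02) and Fcgr4 (1.03), among 20485 genes well above background on all LFA and NTL arrays. Saa1, an acute phase protein, differed from control by 3.52 in LFA, 3.94 in NTL, 0.61 in SFA and 1.91 in NTS. For Fcgr4, an immunoglobulin receptor of macrophages and neutrophils, these were 3.09, 3.50, 0.75 and 0.84. Genes chosen for their likeness to Ereg share its changes by that choice, so these values are no separate support for the Ereg result.

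Some other EGF family genes were called in NTL. Of the 6 tested among Egf, Epgn, Nrg1, Nrg2, Nrg3, Nrg4 and Erbb4, 1 rose and 2 fell in NTL against control, and 0 were called in LFA. The shares called among all probes were 6.81% and 3.94%. At an unadjusted p under 0.05 in limma there were 3 of 6 in each group, beside 23.5% of all probes in NTL and 23.9% in LFA. The medians of the 6 were −0.42 in NTL and −0.44 in LFA. Nrg1, a neuregulin that binds ERBB3 and ERBB4, rose by 2.02 ± 0.58 in NTL, from a control mean of −3.67 to −1.66 (adjusted p = 0.0392), and its difference in LFA was 1.78 ± 0.58 (adjusted p = 0.0804). Nrg4, a neuregulin made by fat cells that binds ERBB4, fell by 1.61 on the log2 scale in NTL (adjusted p = 0.0190), and Erbb4, its receptor, fell by 1.52 (adjusted p = 0.0348). In LFA these differed by −1.14 (adjusted p = 0.1001) and −0.997 (adjusted p = 0.166). Whether LFA and NTL differ in them was tested, and 0 of the 6 genes passed. That comparison called 0% of all probes, so the count tells nothing particular about these genes.

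Adipocyte markers moved beside Nrg4, with 2 of 5 lower in NTL and 1 of 5 in LFA against control. Their summed level was 180 to 368 in NTL, 167 to 454 in LFA and 331 to 563 in control, and their part in the Nrg4 change was not tested. Skeletal muscle markers also fell, 2 of 9 in LFA and 3 of 9 in NTL, and their part in the Nrg4, Erbb4 and Erbb3 values was not tested.

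In the list of HGF activation and the MET family, 1 of 8 genes passed in each long-fiber group. The shares called among all probes were 3.94% in LFA and 6.81% in NTL. St14, the membrane protease matriptase that can cleave pro-HGF, rose by 1.35 ± 0.32 in LFA (adjusted p = 0.0279) and by 1.19 ± 0.32 in NTL (adjusted p = 0.0313), from a control mean of −3.02 to −1.68 and −1.83. It also rose in LFA over SFA, by 1.46 (adjusted p = 0.0311), and in NTL over NTS, by 1.42 (adjusted p = 0.0108). Mst1r, the receptor related to MET, was higher in NTL than in NTS by 1.03 ± 0.26 (adjusted p = 0.0183) and differed from control by 0.17. The median of the 8 was 0.78 in LFA and 0.57 in NTL, and 3 of them, Hgfac, Hpn and Mst1, are made mainly by liver. Hgfac (the HGF activator) and Mst1 differed from control by 2.21 and 3.15 in LFA with SDs between LFA arrays of 4.13 and 5.04, and were not called.

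**Figure D5:**
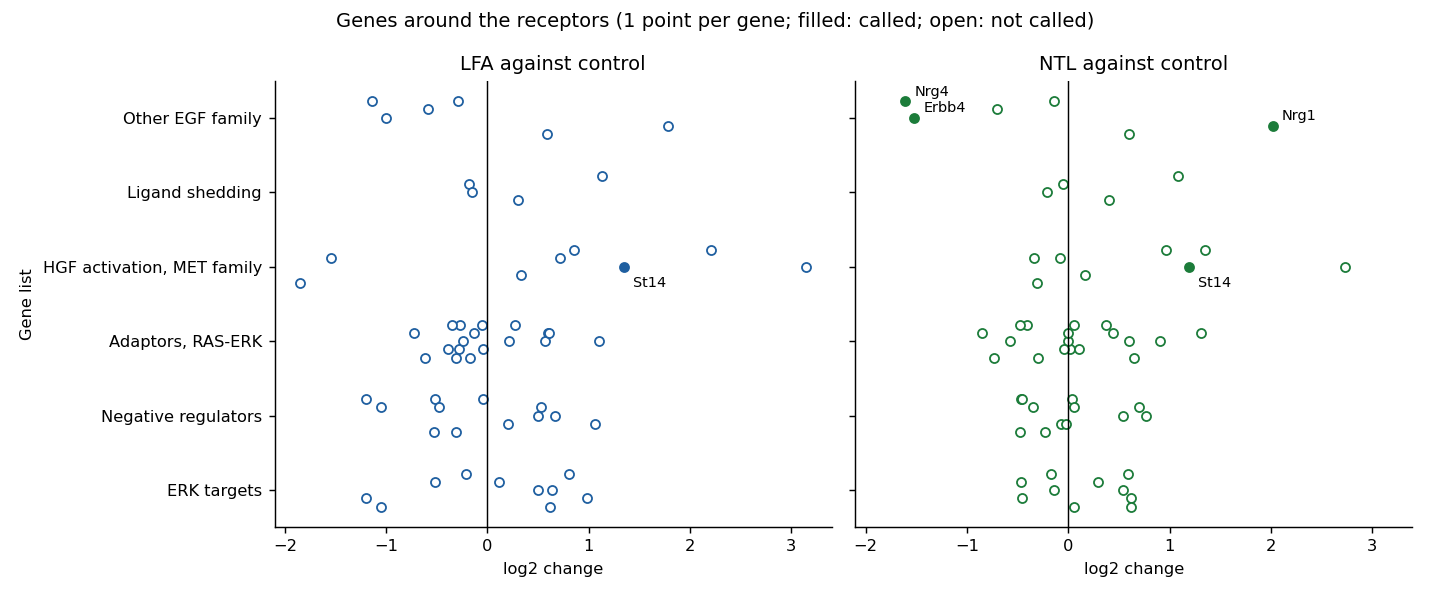
Log2 change against control (horizontal axis) of each tested gene in 6 lists around the receptors, in LFA (left) and NTL (right), with 1 point per gene and filled points for called changes. St14 is filled in both, and Nrg1, Nrg4 and Erbb4 in NTL alone. LFA against NTL called 0 genes of these lists and 0% of all probes.

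Around and downstream of the receptors no other gene was called against control. The 4 proteases and cofactors of ligand shedding included Adam10, which sheds EGF and betacellulin, at 1.13 ± 0.34 in LFA (adjusted p = 0.0618) and 1.09 ± 0.34 in NTL (adjusted p = 0.0564). Adam10 was called in NTL over NTS, by 1.24 (adjusted p = 0.0286). Of 18 adaptors and members of the RAS-ERK cascade, 12 negative regulators and 10 target genes of ERK, 0 were called in LFA or NTL against control in limma, with 4, 0 and 2 at an unadjusted p under 0.05 in LFA and 2, 1 and 1 in NTL, where 23.9% and 23.5% of all probes were under it. In NTL, Hras1 (−0.85, adjusted p = 0.0494) and Map2k2 (−0.74, adjusted p = 0.0367), members of the cascade, met the p threshold with changes under 2-fold. The median changes of these lists were −0.15, −0.18 and 0.31 in LFA and 0.01, −0.05 and 0.17 in NTL.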

How the data were processed

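RNA from the diaphragm of 20 mice was labeled with a single dye and hybridized to 60K mouse arrays. The deposited values are background-subtracted spot intensities from Agilent Feature Extraction 10.7.3.1. Group means of log2 values that the authors normalized in GeneSpring were also deposited, and served as an alternative without a test. Outlier spots (92 to 204 per array) were left out, 0 spots were saturated, and the spots of a probe were averaged. From each log2 intensity the array's own 75th percentile was subtracted. All arrays were fitted together in limma 3.58.1 (R 4.3.3) over the 36930 of 55681 probes that were well above background on at least 4 arrays, and p-values were adjusted over these by Benjamini-Hochberg. The brightest probe stood for its gene. A group with no array above background gives only an approximate bound, computed from the lowest signal of any probe well above background on each array or the probe's own where higher. Files were read and plots drawn in Python 3.11.15 (pandas 2.3.3, numpy 2.4.6, matplotlib 3.10.9). The steps were tested on simulated data. The number of arrays limits the precision.

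The members and gene lists were chosen with earlier results of these data known. Every member is named, and other genes where called in LFA or NTL against control. Genes outside these rules (Mst1r, Hgfac, Hpn, Mst1, Adam10, Hras1 and Map2k2) were named after their values were seen. The order of genes on chromosome 5 was taken from RefSeq (GRCm38.p6), which served for names only.

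The alternatives were quantile normalization, normexp with an offset of 50, no filter, a filter on all arrays, slide (3 slides), scan day (2 days) or replicate number as a block, the mean of a gene's probes, only the groups compared, each array left out, the authors' table and an unequal-variance analysis of variance adjusted over all tested probes. Leaving out the arrays richest in liver transcripts, and adjusting that analysis of variance only over probes changed at least 2-fold, as in the methods, were added after seeing the data.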

Additional observations from a re-analysis of the deposited data

Results flagged for a closer look

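Of 60 sets of 4 arrays (12 probes in 5 groups), 4 held an array far from the other 3 by Dixon's test, and chance alone gives about 1 in 20. NTS 3 was highest for Erbb3, at −3.61 against −4.67 to −4.50 on the other NTS arrays. SFA 2 was highest for Areg, at −4.88 against −7.49 to −7.22, though it was not above background there. NTL 2 was lowest for Btc, at −7.38 against −4.52 to −4.28, and control 2 was lowest for Tgfa, at −6.27 against −4.90 to −4.81, both below background. Areg, which was not tested, was well above background on NTL 4 alone, at −5.08, where control arrays lay between −7.63 and −5.69.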

How the results depend on the processing

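Over the 1981 recomputed member changes 0 reversed a called direction, 27 lost a call and 17 gained one. The other 1937 kept their side of the threshold. For the authors' table, which has no test, this means only that the change stayed near that of the main fit. The calls of 0 genes in SFA and NTS against control, LFA against NTL and the difference of length effects held in all 31 alternatives. For NTL against NTS, 2 genes became 0 with normexp, with slide, scan day or the replicate block, and with the filter on all arrays, 1 with no filter, and between 0 and 3 with single arrays left out. LFA against control had 1 gene, and this became 0 under the filter on all arrays, 2 in the fit of only the groups compared, 2 without NTS 3 and 4, 2 without the 5 arrays richest in liver transcripts, and 0 to 2 with single arrays left out. NTL against control had 1 gene, with 0, 2, 2 and 2 under the same settings and 1 to 2 with single arrays left out. LFA against SFA had 0 genes, with 0 to 1 when single arrays were left out, 1 without NTS 3 and 4, and 1 without the 5 arrays. The F test had 1 gene, with 0 under the filter on all arrays, 0 in the unequal-variance test adjusted over all probes, 2 in the same test adjusted over probes with a 2-fold change, 2 without NTS 3 and 4, and 2 without the 5 arrays. The filter on all arrays leaves 4 member genes, and Ereg is not among them. Elsewhere the cause was not tested.

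Equal replicate numbers do not mark the same mouse. Deviations from the group means correlated between −0.68 and 0.69 for equal numbers, above 0.1 in 14 of 40 pairs, and the replicate block left other counts as they were. Under quantile normalization the median change of all probes was −0.08 in LFA and −0.09 in NTL. Ereg, Btc, Tgfa, Erbb3 and Hgf were below background on part of the arrays, so the size of their changes depends on the background correction.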
